A study of Mus musculus with 9 samples.

Results

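The small leucine-rich proteoglycans are secreted proteins of the extracellular matrix, and 10 of their genes were followed on every array: Dcn, Bgn, Aspn, Lum, Fmod, Prelp, Omd, Kera, Ogn and Podn. All probe sets that carry 1 of these symbols alone were taken, 21 of 45037. They were singled out because Dcn and Fmod differ widely between arrays of the wild-type line, so values of these 2 genes within that line are a description and carry no test. Comparisons between the lines use those same values again. The samples were 9 Affymetrix arrays of mouse embryonic fibroblasts from E13.5 embryos, all spontaneously immortalised in culture. A Suv420h1-null line was measured after reconstitution with a Suv420h1-GFP fusion (1 array), and without it (2 arrays, 1 untransduced and 1 given GFP). Suv420h1, whose current symbol is Kmt5b, is a methyltransferase for histone H4. A wild-type line carried lentivirus for truncated PREX2 (3 arrays, with stop codons at K278*, E824* and Q1430*), for full-length PREX2 (1 array) or for a control protein (2 arrays, GFP and LacZ). PREX2 is an exchange factor that activates the GTPase Rac.

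Each line stands for 1 genotype, and embryo, immortalisation and Suv420h1 status cannot be told apart between them. No construct was repeated, and the labels name no separate cultures for arrays of 1 group. Every group of more than 1 array pools different constructs, such as GFP with LacZ, or K278* with E824* and Q1430*. Comparisons of whole lines also pool the reconstituted array with null cells, and PREX2 arrays with control vectors. The p-values therefore reflect the scatter between such arrays, in which construct and technical differences cannot be told apart. Signals are MAS5 values on a linear scale with a trimmed mean of 500 on every array. The brightest of the 4 tested Kmt5b probe sets was not low in the null line (442 untransduced and 432 with GFP, against 295 and 469.6 on the GFP and LacZ arrays of the wild-type line). The next set was higher in null cells (536 and 462, against 221 and 338, log2 difference 0.81, limma adjusted p = 0.0398). A dimmer set, singled out after its values were seen, was at 150.3 on the reconstituted array, 8.85 and 17.3 on the null arrays, and 118 to 182 on the wild-type-line arrays. The position of these sets within the transcript was not used here, and a set outside the deleted part checks nothing. The fibroblast label was set against 11 marker genes. Vimentin, Col1a2 and Pdgfrb were bright on all arrays, whereas Thy1, a fibroblast surface protein, was at 6.90 to 27.3 on null-line arrays, against 1097 to 3641 on wild-type-line arrays. With all arrays of each line compared in limma, 5 of the 11 were lower in the null line and 0 higher, where 23.2% of all tested genes were lower. Besides Thy1 these were Prrx1 (log2 difference -0.95), Twist2 (-0.89), Col3a1 (-0.46) and Col1a2 (-0.27).

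Proteins of this family share a horseshoe-shaped core of leucine-rich repeats. Most members bind fibrillar collagen through it, and space, shape or protect the fibrils. Several also hold growth factors such as TGF-beta or signal through receptors on the cell surface. Decorin (Dcn) and biglycan (Bgn) carry chondroitin or dermatan sulfate chains, lumican (Lum), fibromodulin (Fmod) and keratocan (Kera) carry keratan sulfate, and asporin (Aspn) carries no such chain. Fibroblasts, tendon cells, corneal keratocytes and bone cells are known sources of these proteins. In bulk RNA, fewer cells of a type and less RNA per cell cannot be told apart.

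The genes lie in clusters, which sets out which members are neighbours. In the RefSeq annotation of GRCm38.p6, Dcn, Lum and Kera follow each other on chromosome 10 and Epyc comes next. Aspn, Omd and Ogn follow each other on chromosome 13 after Ecm2, and Prelp and Fmod lie side by side on chromosome 1 after Optc. Bgn is on chromosome X and Podn on chromosome 4. RefSeq promoter sequence (GRCm38.p6) was matched for 8 of the 10 genes. The 250 bases before the start are shown for Fmod, the member that differed between the lines, and for its neighbour Prelp. They are also shown for the chromosome 13 cluster and for Bgn, which was nearly level. The cluster's members were low together on the wild-type GFP and K278* arrays, as were all other tested members but Bgn. Sequences run 5′ to 3′ on the gene's strand, and capitals mark matches on either strand to a TATA box (TATAAA), an AP-1 site (TGANTCA), a GC box (GGGCGG) or an E-box (CANNTG).
Fmod: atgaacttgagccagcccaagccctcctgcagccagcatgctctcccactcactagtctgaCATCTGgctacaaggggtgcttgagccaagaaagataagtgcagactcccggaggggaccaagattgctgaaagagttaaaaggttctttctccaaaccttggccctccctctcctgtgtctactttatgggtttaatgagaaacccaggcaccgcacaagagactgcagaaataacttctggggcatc
Prelp: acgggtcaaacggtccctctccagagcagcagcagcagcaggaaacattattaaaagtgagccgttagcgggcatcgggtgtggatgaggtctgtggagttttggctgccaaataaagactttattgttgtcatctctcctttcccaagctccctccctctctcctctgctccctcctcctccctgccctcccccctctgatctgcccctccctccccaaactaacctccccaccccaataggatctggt
Aspn: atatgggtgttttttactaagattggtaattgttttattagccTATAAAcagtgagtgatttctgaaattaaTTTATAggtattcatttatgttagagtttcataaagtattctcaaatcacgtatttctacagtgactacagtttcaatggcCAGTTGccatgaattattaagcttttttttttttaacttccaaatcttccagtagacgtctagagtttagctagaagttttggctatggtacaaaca
Omd: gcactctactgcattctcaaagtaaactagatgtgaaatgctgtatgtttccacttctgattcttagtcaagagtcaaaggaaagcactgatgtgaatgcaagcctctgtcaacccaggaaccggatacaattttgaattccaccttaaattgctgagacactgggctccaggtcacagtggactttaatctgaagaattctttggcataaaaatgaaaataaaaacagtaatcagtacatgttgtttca
Ogn: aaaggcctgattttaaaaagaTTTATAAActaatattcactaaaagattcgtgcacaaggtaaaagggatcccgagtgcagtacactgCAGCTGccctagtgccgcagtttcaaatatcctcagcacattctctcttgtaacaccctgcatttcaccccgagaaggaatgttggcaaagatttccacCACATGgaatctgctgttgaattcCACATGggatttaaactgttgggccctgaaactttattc
Bgn: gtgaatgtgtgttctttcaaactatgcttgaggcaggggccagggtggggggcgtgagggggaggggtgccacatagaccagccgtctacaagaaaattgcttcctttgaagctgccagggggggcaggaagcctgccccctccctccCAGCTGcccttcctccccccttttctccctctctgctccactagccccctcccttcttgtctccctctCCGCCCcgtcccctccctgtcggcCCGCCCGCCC
These windows are chr1:134037004-134037253 (plus strand) for Fmod, chr1:133921402-133921651 (minus strand) for Prelp, chr13:49544193-49544442 (plus) for Aspn, chr13:49582212-49582461 (plus) for Omd, chr13:49607765-49608014 (plus) for Ogn and chrX:73483351-73483600 (plus) for Bgn. The Fmod window held 1 CANNTG, 189 bases before the start, and none of the other motifs. The Prelp and Omd windows held none of the motifs searched. Aspn had 2 TATAAA matches and 1 CANNTG, and Ogn had 2 TATAAA, which overlap on opposite strands, and 3 CANNTG. Bgn had 3 GGGCGG matches, 2 of them overlapping at the end of the window, and 1 CANNTG. Podn, not shown and low on the same 2 arrays as the cluster, had 2 GGGCGG matches in 1 of its windows. Of 32851 windows of this length, 12.4% held TATAAA, 6.75% TGANTCA, 32.7% GGGCGG and 66.2% CANNTG. No TGANTCA was found in the windows of the 8 genes. A match is a description of the letters and not evidence of binding.

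Dcn encodes decorin, which binds collagen fibrils and TGF-beta. Its signal was 4050 in reconstituted null cells, against 9579 untransduced and 7556 with GFP in null cells. Wild-type-line values were 7633 with K278*, 27342 with E824*, 21936 with Q1430* and 13857 with full-length PREX2, against 962 with GFP and 21523 with LacZ as controls. The wild-type line thus held both the highest and the lowest of the 9 values, and the null-line values lay between them. The ratio of its highest to its lowest wild-type-line array was 28.4, and its SD over these 6 arrays on the log2 scale, 1.80, ranked 4 of 10177 tested genes. A second Dcn probe set, with a mean signal of 49.9 and too dim to be tested, was likewise lowest on the wild-type GFP array, at 3.67, and stood at 90.4 on LacZ.

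Bgn encodes biglycan, the closest relative of decorin, known also as a ligand of Toll-like receptors when released. It was near the top of every array, ranking between 48 and 123 of 45037 probe sets. Its signal was 28980 in reconstituted null cells, against 26698 and 28937 in null cells. It was 25999 with K278*, 32278 with E824*, 30735 with Q1430* and 32574 with full-length PREX2, against 29320.1 with GFP and 33031 with LacZ. The ratio of highest to lowest in the wild-type line was 1.27, the smallest of the 10 genes. The highest signal of any probe set was 38169 on the K278* array, 38886 to 40843 on null-line arrays and 42222 to 45456 on the rest of the wild-type line. Whether such bright signals are compressed was not tested.

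Aspn encodes asporin, which binds collagen and TGF-beta and has a run of aspartate residues. It was at 4593 in reconstituted null cells, against 7382 and 8586 in null cells. In the wild-type line it was at 9838, 12557 and 13928 with truncated PREX2 (K278*, Q1430* and E824*) and at 10623 with full-length PREX2, against 5329 with GFP and 12184 with LacZ. Apart from the GFP array, every wild-type-line value lay above every null-line value.

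Lum encodes lumican, which regulates fibril diameter in cornea and skin. It was dim in the null line, at 53.5 in reconstituted cells, against 48.6 and 75.0 in null cells. In the wild-type line it was at 71.6 with K278*, 525 with E824*, 323 with Q1430* and 153.6 with full-length PREX2, against 24.0 with GFP and 373 with LacZ. K278* lay among the null-line arrays and GFP below them, and the other wild-type-line arrays lay above all of them. Kera encodes keratocan of the cornea and was dimmer still, with a mean of 23.5, so that it was not tested. It was at 2.80 in reconstituted cells, against 2.79 and 2.46 in null cells, and was at 108.7 with E824* and 48.7 with Q1430*, against 1.98 with GFP and 30.5 with LacZ. Its value was 2.76 with K278* and 11.2 with full-length PREX2. Such low values are near background, and the ratios between them carry little weight.

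Fmod encodes fibromodulin, which binds collagen and steers fibril assembly, above all in tendon. Its signal was 3254 in reconstituted null cells, against 1041 untransduced and 1656 with GFP in null cells. Wild-type-line values were 152.5 with K278*, 519 with E824*, 389 with Q1430* and 198 with full-length PREX2, against 33.7 with GFP and 367 with LacZ. All 3 null-line arrays lay above all 6 wild-type-line arrays. The gene ranked 45 of 10177 by its SD over the wild-type-line arrays and 37 by its SD over the null-line arrays. It was thus widely spread in both lines.

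**Figure D1:**
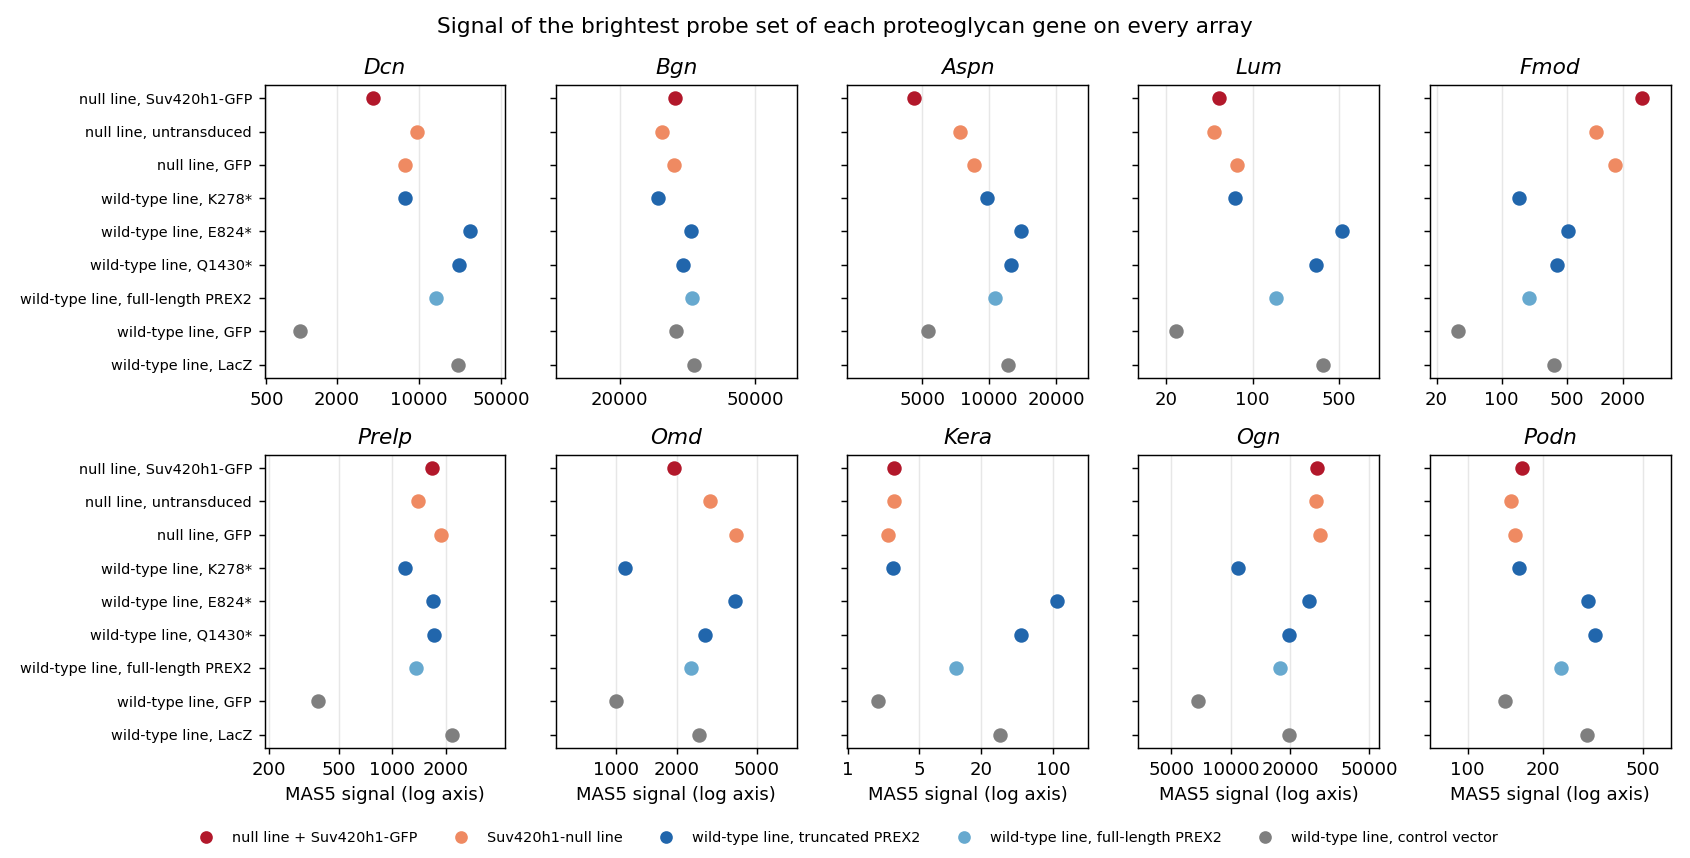
MAS5 signal (log axis) of the brightest probe set of each of the 10 genes, 1 point per array, with arrays running down the page and coloured by group. Fmod is the gene whose null-line points all lie to the right of the wild-type-line points by a wide margin, Bgn is nearly level between 25999 and 33031, and the wild-type GFP array has the lowest wild-type-line point in 9 of 10 panels.

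Prelp encodes a protein with an arginine- and proline-rich end that anchors basement membranes to connective tissue. It was at 1664 in reconstituted cells, against 1390.05 and 1869 in null cells. Across the wild-type line it was at 1177 with K278*, 1698 with E824*, 1705 with Q1430* and 1355 with full-length PREX2, against 379 with GFP and 2169 with LacZ. Omd encodes osteomodulin, a keratan sulfate proteoglycan of bone and dentine. It was at 1945 in reconstituted cells, against 2918 and 3944 in null cells, and at 1104 with K278*, 3900 with E824*, 2776 with Q1430* and 2343 with full-length PREX2, against 1001 with GFP and 2585 with LacZ. For both genes the lines overlapped, and the GFP array was the lowest of all 9.

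Ogn encodes osteoglycin, also called mimecan. It was level in the null line, at 27130 in reconstituted cells, against 27003 and 28121 in null cells. Among wild-type-line arrays it was at 10837 with K278*, 24828 with E824*, 19715 with Q1430* and 17787 with full-length PREX2, against 6822 with GFP and 19698 with LacZ. All null-line values lay above all wild-type-line values. By SD, Ogn ranked 259 of 10177 genes in the wild-type line and 9691 in the null line. Podn encodes podocan and was dim, at 165 in reconstituted cells against 149 and 154 in null cells. It was at 160.1 with K278*, 301 with E824*, 322 with Q1430* and 235 with full-length PREX2, against 141 with GFP and 299.7 with LacZ.

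Within the wild-type line the members shared an order of arrays. In 8 of the 9 tested members the GFP array was lowest and the K278* array next lowest, and Bgn was the exception. Over all tested genes GFP was lowest in 34.8%, and GFP and K278* were the lowest pair in that order in 20.6%. The E824* array was highest for Dcn, Aspn, Lum, Fmod, Omd, Kera and Ogn, LacZ for Bgn and Prelp, and Q1430* for Podn. Pearson's r over the 6 arrays, on the log2 scale, lay between 0.785 and 0.995 for the 28 pairs of tested members without Bgn (median 0.949), and between 0.431 and 0.786 for the 8 pairs with it. Without the GFP array these ranges were 0.689 to 0.998 (median 0.919) and 0.638 to 0.879 (median 0.789, against 0.590 with it), so the pairs with Bgn lay closer to the rest. These arrays share their scaling and the same low GFP and K278* arrays, and the correlations are a description.

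The GFP array was set against the LacZ array, 1 array each and with no test, because both are control vectors. The log2 difference was -4.45 for Dcn, -3.02 for Lum, -2.74 for Fmod, -2.44 for Prelp, -1.53 for Ogn, -1.35 for Omd, -1.19 for Aspn, -0.97 for Podn and -0.17 for Bgn. All 9 were lower on GFP, where 53.4% of genes were. By over 2-fold 7 of 9 were lower, where 5.5% of all tested genes were, and the median over members was -1.53, against -0.03 over all genes. The K278* array lay below the mean of E824* and Q1430* by over 2-fold for 5 of 9 members, where 1.7% of genes did (median -1.03 over members and -0.03 over all genes). Dcn lay at -1.68 and Lum at -2.18 in that description. The rule that chose the genes used this spread, so nothing further is read from these counts.

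**Figure D2:**
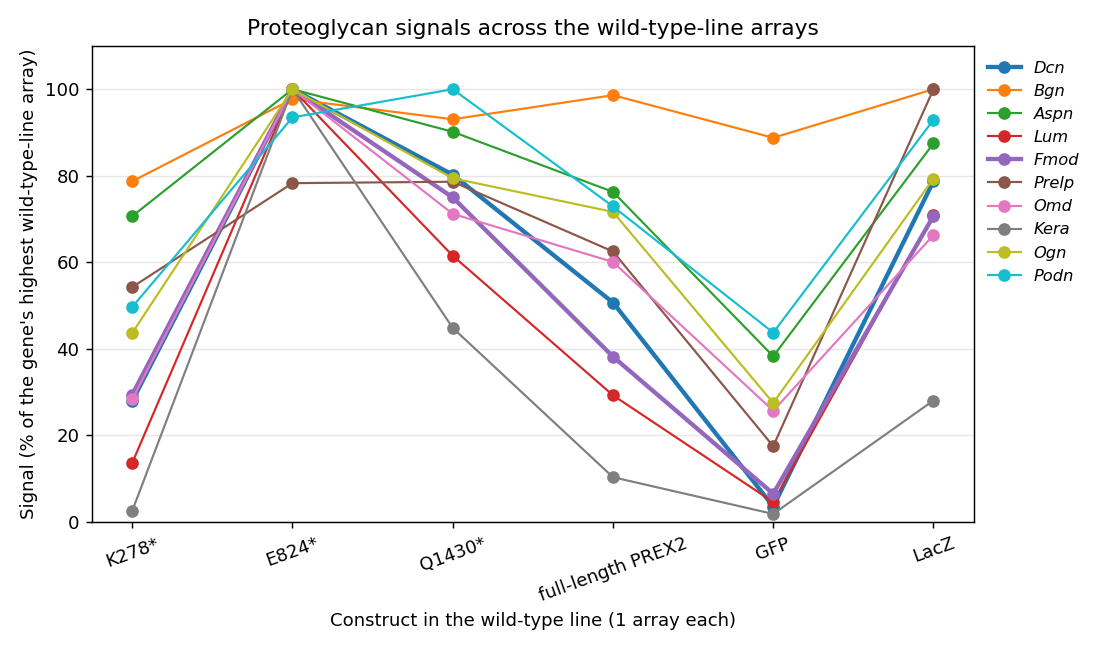
Signal of each gene on the 6 wild-type-line arrays (1 array per construct), as a percentage of the gene's own highest wild-type-line array, with constructs along the horizontal axis and Dcn and Fmod drawn thicker. Dcn falls to 3.52% and Fmod to 6.49% on the GFP array and to 27.9% and 29.4% on K278*, while Bgn stays at 78.7% or above.

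Genes most like Dcn over these 6 arrays, by Pearson's r of log2 signals, were Eya4, a phosphatase and transcriptional coactivator, Tmem64, the histone acetyltransferase Kat2b, the protease inhibitor Serpina3n and the laminin chain Lamb2, all at r = 0.999. Eya4 was at 1443 with K278*, 2111 with E824*, 1976 with Q1430* and 1720 with full-length PREX2, against 707 with GFP and 1980.01 with LacZ. Those most like Fmod were Parp9, Armcx3, the microtubule-severing enzyme Spast, Tbc1d14 and Rilpl1, at r between 0.997 and 0.999. Over all 9 arrays r with Fmod was 0.983 for Parp9, 0.911 for Armcx3 and 0.927 for Spast, but -0.196 for Tbc1d14 and -0.363 for Rilpl1. The genes most like Dcn had r between 0.768 and 0.929 with it over all 9. Parp9, an ADP-ribosyltransferase relative induced by interferon, was also high in the null line, at 1298 in reconstituted cells and at 1072 and 1244 in null cells, against 112 to 490.04 in the wild-type line. Over the 6 wild-type-line arrays Dcn's r was 0.995 with Aspn and 0.980 with Fmod. No shared function or control is read from these values.

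Truncated PREX2 was compared with control vector and with full-length PREX2, to ask whether the truncations change these genes. Over all tested genes 0.00983% passed for truncated PREX2 against control vector, which is 1 gene, and 0% for full-length PREX2 against control vector and for truncated against full-length PREX2. Dcn and Fmod, chosen for their spread in this line, are left out of the counts. Of the other 7 tested members 0 passed in the 3 comparisons (limma, adjusted p below 0.05), and 0 did at an unadjusted p below 0.05, where 2.82%, 1.41% and 1.26% of probe sets passed. For truncated PREX2 against control vector Aspn averaged 12108 against 8757 (log2 difference 0.57, 95% interval -0.18 to 1.32, 3 against 2 arrays). Ogn averaged 18460 against 13259.9 (0.59, interval -0.51 to 1.69), and Bgn 29671 against 31175 (-0.07, interval -0.34 to 0.19). The intervals of Aspn and Ogn include more than a 2-fold difference, so a change of that size was not excluded. Truncated and control groups overlapped for each of these 7 members, where 13.1% of genes did not overlap. Without the LacZ array 1 member passed, Prelp, higher with truncated PREX2 than on the GFP array, as did 117 probe sets.

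The null line was compared with control vector (2 against 2 arrays), and all null-line with all wild-type-line arrays (3 against 6), to ask which members differ between the lines. The comparisons share arrays, and 1 of the 3 null-line arrays is the reconstituted one, which carries Suv420h1-GFP. The wild-type-line values by which Dcn and Fmod were chosen enter both, so p-values of these genes are not independent of that choice. Fmod rose in both comparisons. It averaged 1348 ± 434 in null cells and 200.1 ± 235 in control-vector cells (SD, n = 2 each), a log2 difference of 3.14 or 8.83-fold (SE 0.862, 95% interval 1.13 to 5.16, limma adjusted p = 0.042). Over whole lines it averaged 1984 ± 1143 in the null line (n = 3) and 276 ± 179 in the wild-type line (n = 6), a log2 difference of 2.89 or 7.43-fold (SE 0.621, interval 1.52 to 4.26, limma adjusted p = 0.00337). It was higher on 3 of 3 null-line arrays than on any wild-type-line array.

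The Fmod call against control vector was near its threshold, and that over whole lines was not. Without the wild-type GFP array the first difference was 1.77 (adjusted p = 0.0942). It missed the threshold in 8 of 17 alternatives, among them either null array left out, an offset of 5 and no filter, with log2 differences of 1.77 to 4.51 over all 17. Over whole lines Fmod passed in all 21 alternatives, with log2 differences of 1.97 to 3.27. Without the reconstituted array, which held its highest value, the difference was 2.46 (adjusted p = 0.0238). The 17 and the 21 alternatives each include the fit without the wild-type GFP and K278* arrays, a choice made after seeing the data. All of them reuse the wild-type-line values by which Fmod was chosen, so passing in them is no independent support for the call. All 6 Fmod probe sets passed over whole lines, and 5 of 6 did against control vector (2.10 to 3.14). Of the 6, 5 have names ending in _x_at, by which Affymetrix marks sets whose probes may also match other transcripts. The remaining set, with a mean signal of 180.2, was at 709.9 in reconstituted cells and 198 and 319.8 in null cells, against 11.3 to 105.1 in the wild-type line. Its log2 difference was 2.21 over whole lines (SE 0.449, adjusted p = 0.00242).

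**Figure D3:**
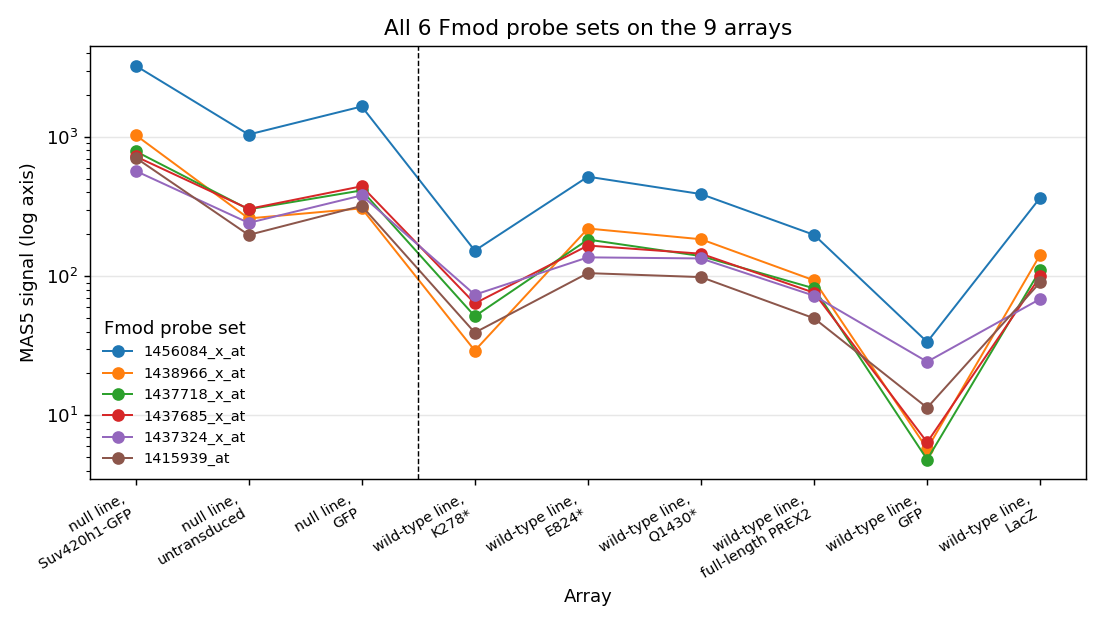
MAS5 signal (log axis) of all 6 Fmod probe sets on the 9 arrays, 1 line per probe set, with null-line arrays left of the dashed line and wild-type-line arrays right of it. All 6 are highest on the reconstituted array, at 571 to 3254, and lowest on the wild-type GFP array, at 4.81 to 33.7.

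Against control vector 1 of 9 tested members rose, 0 fell and 8 did not pass, where 20.3% of tested genes passed, 10.2% upwards and 10% downwards. Over whole lines the count was again 1 higher, 0 lower and 8 not passing, where 43.9% of genes passed, 20.7% upwards and 23.2% downwards. The groups did not overlap for 4 of 9 members against control vector, where 60.7% of genes did not, and for 2 of 9 over whole lines, where 41.4% did not. Dcn and Fmod were chosen by their wild-type-line values, which are 1 side of both comparisons. Of the other 7 tested members 0 passed in either. For these 7 the groups did not overlap in 3 against control vector and in 1 over whole lines. These shares of members lie near or below those over all genes, so nothing is read from them about the family. Median log2 differences over the members were 0.80 against control vector and -0.12 over whole lines, and over all tested genes -0.03 and -0.02.

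Ogn averaged 27562 ± 791 in null cells and 13259.9 ± 9105 in control-vector cells (SD, n = 2 each), a log2 difference of 1.25 (SE 0.516, adjusted p = 0.135), and its difference over whole lines was 0.84 (SE 0.337, adjusted p = 0.0645). Omd differed by 1.06 (adjusted p = 0.268) and Prelp by 0.80 (adjusted p = 0.444) against control vector. Without the wild-type GFP array Omd was at 0.39 and Prelp at -0.42, and without LacZ Omd was at 1.74 (adjusted p = 0.0919) and Prelp at 2.02 (adjusted p = 0.0037). Over whole lines Lum differed by -1.27 (SE 0.659, adjusted p = 0.145), Aspn by -0.63 (SE 0.283, adjusted p = 0.0942) and Podn by -0.51 (SE 0.239, adjusted p = 0.109). Without the wild-type GFP array these 3 passed, at -1.67, -0.82 and -0.64, as did Ogn at 0.61. In that fit 6 of 9 members passed, Dcn and Fmod among them. So did 9646 of 19090 probe sets, against 8285 with all arrays, and nothing is read from this count about the family. A second Aspn probe set read 2887 in reconstituted cells and 4380.2 and 6180.3 in null cells, against 3945 to 14361 in the wild-type line. It was lower in the null line by its own fit (-1.13, SE 0.391, adjusted p = 0.0372), so the 2 Aspn sets lie on either side of the threshold. Bgn differed by -0.16 against control vector and -0.12 over whole lines (SE 0.123 and 0.0772), and after quantile normalization by 0.061 and 0.067, so its direction depends on the scaling.

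Dcn shows how far 1 array reaches. It averaged 8568 ± 1430.5 in null cells and 11243 ± 14539 in control-vector cells (SD, n = 2 each), and its log2 difference was 0.89 (SE 1.27, adjusted p = 0.666), positive although the mean signal was lower in null cells. Without the wild-type GFP array the difference was -1.34, and without the LacZ array it was 3.11, each with 1 control array left. Over whole lines it was -0.66 (SE 0.888, adjusted p = 0.581), and without the wild-type GFP array -1.34 (adjusted p = 0.0121).

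Because the GFP and K278* arrays of the wild-type line stood apart for these genes, both comparisons were repeated without them, a choice made after seeing the data. Then 7 of 9 members passed in each: Fmod and Ogn were higher in the null line, and Dcn, Bgn, Aspn, Lum and Podn lower. Dcn was at -1.34 against control vector (adjusted p = 0.000151) and -1.63 over whole lines (adjusted p = 0.000328), Lum at -2.21 and -2.04, and Ogn at 0.48 and 0.43. With the same arrays left out the number of probe sets called over the whole array was 7054 against control vector and 10639 over whole lines of 19090 tested, against 3753 and 8285 with all arrays. Control vector is then 1 array, LacZ, assumed to vary like the others, and leaving out arrays that were chosen by these genes' values lowers their spread by construction.

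**Figure D4:**
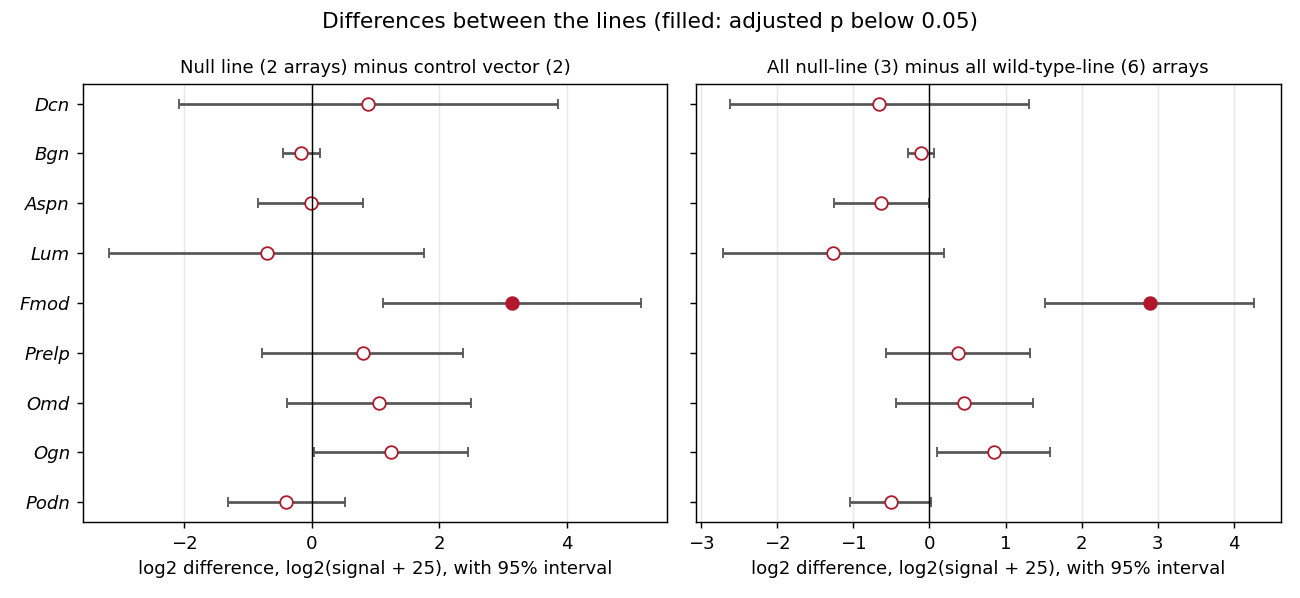
Log2 differences of the 9 tested genes with 95% intervals, null cells minus control vector on the left (2 against 2 arrays) and all null-line minus all wild-type-line arrays on the right (3 against 6). Filled points passed at an adjusted p below 0.05, which Fmod did in both panels, and the intervals of Dcn and Lum are the widest on the right.

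Reconstitution with Suv420h1-GFP was compared with the 2 null arrays, to ask which members change when the enzyme is returned. In limma 0% of genes passed, 3.25% of probe sets did at an unadjusted p below 0.05, and 0 of 9 members did by either measure. Fmod was at 3254 in reconstituted cells, above 1041 and 1656 in null cells (log2 difference 1.29, SE 1.06, adjusted p = 0.9999, 1 against 2 arrays), and all 6 of its probe sets lay higher (0.86 to 1.78). The wild-type-line arrays lay below all 3 of these values, but the difference did not pass and nothing is read from its direction. Dcn differed by -1.07 (SE 1.55), Aspn by -0.79 (SE 0.431) and Omd by -0.79 (SE 0.755), and Ogn and Bgn by -0.02 and 0.06. Beyond 2-fold lay 1 of 9 members upwards, Fmod, and 1 downwards, Dcn, where 0.314% and 0.56% of genes did. These are the 2 genes chosen for their spread in the wild-type line. By SD over the null-line arrays, the reconstituted one among them, they ranked 37 and 93 of 10177. Nothing is read from this count about the family. With the compared groups fitted alone, 4 members passed, Fmod higher and Dcn, Aspn and Omd lower, as did 233 probe sets in all. That fit has 1 residual degree of freedom and takes its spread from the 2 null arrays.

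Other genes of small leucine-rich or related proteoglycans were measured in 6 cases, of which 3 passed the filter on signal. Optc, which encodes opticin of the eye and lies next to Prelp, was at 37.9 in reconstituted cells and 56.9 and 54.3 in null cells, against 154 to 329 in the wild-type line. It fell by 1.88 on the log2 scale against control vector (SE 0.246, limma adjusted p = 0.00284), whereas its cluster neighbour Fmod rose. Optc was highest on the GFP array. Epyc, which encodes epiphycan and follows Kera, was at 12.5 in reconstituted cells and 20.4 and 34.7 in null cells. In the wild-type line it was at 107.6 with K278*, 765 with E824*, 465.5 with Q1430* and 246 with full-length PREX2, against 11.2 with GFP and 433 with LacZ. It fell over whole lines (log2 difference -2.41, SE 0.794, adjusted p = 0.0303). Ecm2, beside Aspn, was at 7.63 to 34.9 and was not tested.

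The enzymes that build the sugar chains were called in both directions. Of 21 tested genes for the chain linkage and for chondroitin or dermatan sulfate, 4 rose and 1 fell in null cells against control vector, and 9 rose and 2 fell over whole lines. Over all tested genes 10.2% rose and 10% fell in the first comparison and 20.7% and 23.2% in the second, and nothing particular to the lists is read from their counts. Against control vector the sulfotransferase Chst7 was higher by 1.02 on the log2 scale (SE 0.233), B4galt7, which adds a galactose of the linkage, by 0.76, the epimerase-like Dsel by 0.68 and the dermatan 4-sulfotransferase Chst14 by 0.59. The member that fell was the chondroitin synthase Chsy1 (-0.51), named after its value was seen. Of 5 tested keratan sulfate genes 1 rose, the galactosyltransferase B4galt4 (1.005, SE 0.283), and over whole lines B4galt1 rose with it. The median log2 differences of these lists against control vector were 0.09 and 0.34, where that over all genes was -0.03.

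Collagens that these proteins bind were called in both directions. Of 13 tested fibrillar and associated collagens, 3 rose and 0 fell against control vector, where 20.3% of all genes passed. Col11a1 averaged 2900 ± 933 in null cells and 9.74 ± 3.06 in control-vector cells (SD, n = 2 each, log2 difference 6.36, SE 0.258), Col2a1 of cartilage differed by 3.45 and Col5a3 by 2.56. The list's median was 0.56. Over whole lines Col11a1, Col2a1 and Col5a3 rose and Col3a1 (-0.46) and Col1a2 (-0.27) fell. Of 15 genes that process or cross-link collagen, 3 rose and 1 fell against control vector: the lysyl hydroxylase Plod2 by 1.898, the prolyl hydroxylase subunit P4ha2 by 1.06 and the lysyl oxidase Loxl3 by 0.84, while Pcolce2, an enhancer of procollagen cleavage, was at -2.96. Over whole lines 5 of the 15 rose and 1 fell, where 43.9% of all genes passed. The median over these 15 against control vector was 0.14.

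Growth factors and receptors that bind these proteins, 15 tested, gave 4 higher and 3 lower against control vector, and 7 higher and 6 lower over whole lines, where 20.3% and 43.9% of all genes passed. Against control vector Tlr4, a receptor for soluble biglycan and decorin, was at -2.23 (SE 0.203), Egfr, which decorin binds, at 1.89, the co-receptor Tgfbr3 at -1.59 and Tgfb3 at 1.30. Of 8 proteases reported to cut the family's members 1 rose and 2 fell against control vector: Adamts5 was at 1.64, Mmp3 at -3.31 and Htra1 at -3.14. Adamts5 differed between the control arrays, with 1608 on GFP and 4894 on LacZ. Over whole lines 0 proteases rose and 3 fell, Mmp3, Htra1 and Adamts4 (-1.13). Of 12 other proteoglycans the glypican Gpc4 rose (1.57) and versican, Vcan, fell (-0.97) against control vector, and 3 rose and 2 fell over whole lines. Medians of the last 3 lists against control vector were 0.15, 0.29 and 0.06. In reconstitution and in the 3 PREX2 comparisons 0 genes of these lists passed in limma. On the GFP array against LacZ, Col6a1 (-1.28), Col6a2 (-1.33), Adamts1 (-1.97), Adamts5 (-1.59) and Gpc6 (-1.67) lay lower with the family, and Pcolce2 (1.67) and Cspg4 (1.62) higher, examples picked after their values were seen.

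Marker genes of several other cell types also differed between the lines, and their part in the results was not tested. Within the wild-type line the summed signals of the fibroblast, adipocyte, endothelial and neural lists were lowest on the GFP and K278* arrays. Sums of the other lists did not share this order. The tendon sum was highest there on K278* (1965), and the smooth muscle sum was 51094 on GFP against 49356 on LacZ. Single genes of the endothelial and neural lists did not all follow their sums. Tek was at 55.0 on GFP and 193 on K278*, against 296 to 488 on the rest of the wild-type line. Kdr, however, was highest on GFP (109), and Eng (188 and 170) lay within the rest (121 to 224). Map2 was at 762 and 966, against 1348 to 1837, but Tubb3 was highest on K278* (375) and Nes on GFP (182). Over whole lines, 3 of 3 tested tendon genes rose in the null line, where 20.7% of all tested genes did. Nothing about cell types is read from counts in lists this short. Egr1, an immediate-early gene too, was at 19640 to 22767, against 869 to 1412 in the wild-type line. Tnmd was at 336 to 571 against 2.78 to 31.8, and Mkx rose by 0.65 on the log2 scale. Scx, the defining tendon factor, stayed at 20.1 to 73.2 on all arrays. The summed signal of the fibroblast markers was 128309 to 139635 in the null line and 144177 to 181467 in the wild-type line, with K278* (144177) and GFP (146751) lowest there. The adipocyte sum was 2756 on GFP and 4956 on K278*, while the remaining wild-type arrays spanned 7982 to 11136, and null-line arrays 10377 to 13592. Nearly all of it was lipoprotein lipase (Lpl). Over whole lines 1 of 3 tested adipocyte genes rose, Pparg (2.23), and 1 fell, Fabp4 (-1.17), and the defining gene Adipoq was at 4.36 to 27.5 on all arrays. The endothelial sum was 763 to 878 in the null line, and in the wild-type line 385 on GFP and 473 on K278*, the remaining arrays spanning 548 to 724. Of its 2 tested genes Eng rose (1.76, adjusted p = 1.3e-05) and Tek fell (-1.78, adjusted p = 0.0173), while Pecam1 was at 2.63 to 32.7. The macrophage sum was 343 to 383 in the null line and 521 to 718 in the wild-type line. Csf1r, 1 of 2 tested macrophage genes, fell (-1.04, adjusted p = 0.000475), at 198 to 206 against 294 to 544, while Ptprc and Itgam were at 1.25 to 34.4. The cartilage sum was 1018 to 1588 in the null line and 722 to 870.1 in the wild-type line, where Col2a1 rose (3.70) and Sox9, a factor of that lineage, fell (-0.46, adjusted p = 0.00402), with Acan at 20.5 to 63.7. Of 4 tested smooth muscle genes 3 were lower in the null line by limma, where 23.2% of all tested genes were. Their sum was 33079 to 37521 there, against 43109 to 52262 in the wild-type line. The neural sum was 229 to 411 in the null line and 1055 to 2224 in the wild-type line, epithelial 471 to 559 and 584 to 641, and bone 109 to 137 and 80.6 to 163.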

How the data were processed

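RNA of all 9 samples was amplified by in vitro transcription and read on Affymetrix arrays, per the labels' protocols. The deposited intensity of each probe set is a linear MAS5 signal, per the submitters' processing notes, and the MAS5 version was not used here. The table held 45101 probe sets, 64 of them controls. Of the rest, 34945 carried 1 gene symbol, 932 several and 9160 none, and genes were named from the first kind alone.

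Signals were used as log2(signal + 25), so fold changes of dim genes are understated. Probe sets with a mean of at least 100 were tested: 19090 of them, for 10177 genes, including 9 of 10 members and 19 of 21 of their probe sets. Limma 3.58.1 (R 4.3.3) was fitted to all arrays with an intensity trend, on 5 group means (4 residual degrees of freedom) or 2 line means (7). Tests were two-sided, with Benjamini-Hochberg adjustment over all tested probe sets and a threshold of 0.05. A group with a single array was taken to vary as the rest do. The brightest probe set stands for a gene unless others are named. The procedure was tested on simulated data.

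The members and the gene lists were chosen with earlier results of these data known. All 10 members are named. In each list up to 4 passing genes with the largest log2 differences are named, and for likeness the 5 genes with the highest r to Dcn and to Fmod. The alternatives changed the offset (to 5 or 100), dropped the filter or raised it to 200, applied quantile normalization, dropped the trend, or used the compared groups alone, other probe sets or all arrays but 1. A further alternative for the comparisons between the lines, added after seeing the data, left out the wild-type GFP and K278* arrays.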

Additional observations from a re-analysis of the deposited data

How the results depend on the processing

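Results are differences in limma on log2 signals, and counts are of members called among 9, or of probe sets called among those tested. Against control vector, 0 members were called in place of 1 with an offset of 5, with no filter, with no intensity trend and with the compared groups alone, where 1834 probe sets were called in place of 3753. With 1 array left out the count of members lay between 0 and 4 and that of probe sets between 1011 and 4522. Over these fits Dcn ranged from -1.34 to 3.11, Lum from -2.21 to 0.81, Aspn from -0.61 to 0.58, Prelp from -0.42 to 2.02 and Podn from -0.88 to 0.090. In each of these but Aspn the change of sign came with the GFP or the LacZ array left out, which leaves 1 control array, and for Aspn also without the untransduced null array. After quantile normalization Bgn was at 0.061 and Aspn at 0.045. Without the wild-type GFP and K278* arrays, chosen after seeing the data, 7 members and 7054 probe sets were called, with Dcn at -1.34 and Prelp at -0.42.

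Over whole lines 3 members were called after quantile normalization and 7 without the wild-type GFP and K278* arrays. With 1 array left out between 1 and 6 were called, the highest count without the GFP array. In the same fits 8503, 10639 and between 6466 and 9646 of 19090 probe sets were called, in place of 8285. The highest of the last range also came without the GFP array. Bgn was at 0.067 after quantile normalization. Without the wild-type GFP and K278* arrays Omd was at -0.013 and Prelp at -0.067, and Prelp's other probe set was at -0.28.

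For reconstitution 1 probe set was called after quantile normalization, and 4 members and 233 probe sets with the compared groups alone. With 1 null array left out Lum ranged from -0.35 to 0.093, Ogn from -0.052 to 0.0068 and Prelp from -0.17 to 0.25. For truncated PREX2 against control vector 0 probe sets were called with an offset of 100, with no filter and with the compared groups alone. With 1 array left out, between 0 and 1 members and between 0 and 117 probe sets were called, and for full-length PREX2 between 0 and 3 probe sets, the highest counts coming without LacZ. The causes of these shifts were not tested. Among all values 415 kept their direction and their side of the threshold, or stayed within 1.5 times the count, 28 passed only under an alternative, 8 no longer passed, 31 counts moved further than that and 17 values changed sign. No paired analysis was possible because the labels give no replicate numbers. Signals near background, as for Kera, limit what their ratios show.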
